A study of Mus musculus with 6 samples.

Results

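Histone acetyl and lactyl marks are set by a small group of enzymes, and 10 of their genes were examined here in RNA-seq of mouse liver tumors with and without Prmt3 in hepatocytes. The 5 acyltransferases were Ep300, Crebbp, Kat2a, Kat5 and Kat8, and the 5 deacylases were Hdac1, Hdac2, Hdac3, Sirt2 and Sirt3. They were chosen by symbol as enzymes tied to histone lactylation. All 10 are among the 34745 genes of the expression table, and all 10 passed the filter on low counts that left 13892 genes to test.

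Histone lysines carry acetyl groups taken from acetyl-CoA and lactyl groups that form as lactate builds up. Acyltransferases such as p300 and its relative CBP can add both groups and are called writers. The zinc-dependent deacetylases HDAC1, HDAC2 and HDAC3 and the NAD-dependent sirtuins remove them and are called erasers. In the liver, these enzymes link the supply of acetyl-CoA, lactate and NAD to transcription and to the activity of metabolic proteins. The study followed lactate in these tumors, and the comparison asks whether the RNA of the writers and erasers differed with the genotype.

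RNA was sequenced from liver tumors of 3 Prmt3f/f mice (replicates 7, 66 and 71) and 3 Prmt3LKO mice (replicates 92, 93 and 94), with 1 library per tumor. Both genotypes carried floxed Prmt3, the gene of an arginine methyltransferase. The Prmt3LKO mice also carried Alb-Cre, which is active in hepatocytes, so that other cells of the tumor kept Prmt3. The labels name the groups WT and Prmt3-KO. Mice of both groups were male and had received DEN (diethylnitrosamine, a liver carcinogen) as a dose of 25 mg/kg when 2 weeks old and 10% CCl4 (carbon tetrachloride, which injures hepatocytes) at 0.5 ml/kg from 6 weeks, and were killed at 26 weeks. The replicate numbers are names of tumors and pair no tumors across genotypes. The p-values set the difference between genotypes against the spread between tumors of the same genotype.

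Between 18440244 and 27976598 reads were counted per tumor, and a gene at 0 reads could still have stood at up to 0.107 to 0.163 CPM, which are reads scaled to the library size (3 reads as the limit, counting error only). Prmt3 was 6.601, 8.49 and 10.2 CPM in the Prmt3f/f tumors and 2.80, 2.03 and 3.82 CPM in the Prmt3LKO tumors (log2 fold change -1.55, SE 0.29, adjusted p = 0.592 by edgeR). The 6 hepatocyte markers were counted in every tumor, with sums of 131200 to 193400 CPM in Prmt3f/f and 144600 to 158400 CPM in Prmt3LKO tumors. Most of each sum came from Alb (108200 to 164700 CPM over the 6 tumors). Cps1, the most variable of the 6, was 957.8, 2164 and 2964 CPM in Prmt3f/f and 2815, 1156 and 3006 CPM in Prmt3LKO tumors. The genotypes did not overlap in the summed leukocyte markers (12 of 12 counted in every tumor), which were 147.5 to 186.3 CPM in Prmt3f/f and 83.8 to 104.1 CPM in Prmt3LKO tumors. They did not overlap either in the summed kidney markers (4 of 7 counted in every tumor), which were 2.85 to 4.06 CPM in Prmt3f/f and 8.39 to 12.0 CPM in Prmt3LKO tumors. The 6 summed liver tumor markers were 4670 CPM in Prmt3f/f replicate 7 and 465.4 to 1583 CPM in the other 5 tumors, but 4075 CPM of the 4670 came from Spp1, which encodes the secreted protein osteopontin. Of these 6 markers, 2 (Spp1 and H19) were highest in that tumor, and Glul was lowest there at 51.2 CPM. In bulk tumor tissue, fewer cells of a type and less RNA per cell cannot be told apart.

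Hdac1, which encodes a class I deacetylase, has a near-identical copy, and its sequences are shown because they bear on every value of this gene. Hdac1 lies at chr4:129516104-129542713 on the minus strand (GRCm38), and the copy is Gm10093, a processed pseudogene without introns at chr17:78491582-78493025 on the plus strand. Of the 1446 coding bases of Hdac1, 1435 (99.24%) are identical in Gm10093, and 8 of its 12 whole coding exons match from end to end. The longest of these, exon 12 (chr4:129517356-129517508, 153 bases), matches chr17:78492801-78492953 without a difference and is longer than a single sequenced read.
Hdac1 exon 12 and Gm10093: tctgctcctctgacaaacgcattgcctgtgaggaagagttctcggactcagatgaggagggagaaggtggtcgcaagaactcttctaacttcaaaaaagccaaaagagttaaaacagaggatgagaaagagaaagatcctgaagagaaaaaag
The exon that differs most is exon 5 (139 bases), with 6 differing bases, which are set in capitals in both sequences. The Hdac1 exon lies at chr4:129522963-129523101 and the copy at chr17:78491937-78492075, both in GRCm38 and written 5′ to 3′ along the strand of the gene.
Hdac1 exon 5: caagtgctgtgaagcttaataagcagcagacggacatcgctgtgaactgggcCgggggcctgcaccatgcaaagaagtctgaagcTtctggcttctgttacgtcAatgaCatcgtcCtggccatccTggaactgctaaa
Gm10093: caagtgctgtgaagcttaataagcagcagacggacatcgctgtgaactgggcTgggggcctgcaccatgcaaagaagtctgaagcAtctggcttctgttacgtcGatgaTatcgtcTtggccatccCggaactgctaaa
Of the 1939 stretches of 100 bases in the principal Hdac1 transcript of GENCODE M21, 905 (46.67%) also occur in Gm10093. Over all GENCODE M21 transcripts of Hdac1 the share was 24.89% (905 of 3636). The processed pseudogenes AC125456.1 and Gm4864, which are not in the deposited table, shared 75 and 2 of these stretches. The number of such stretches shared between any 2 of the 10 enzymes was 0. Stretches of 100 bases are shorter than the sequenced reads, which came in pairs. The share of read pairs that fit both Hdac1 and Gm10093 can thus be lower than these shares and was not computed.

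None of the 10 genes differed between genotypes in edgeR's quasi-likelihood test (adjusted p under 0.05 and a difference of 2-fold or more either way), where 0% of all genes tested passed. None did with DESeq2, where 0.397% of genes passed. The number at an unadjusted p under 0.05 was 0 (6.56% of all genes), and the number in which the genotypes separated without overlap was 0 (12.2% of all genes). The log2 fold change of Prmt3LKO over Prmt3f/f was above 0 in 4 genes and below 0 in 6, with a median of -0.046 beside 0.00037 over all genes tested. The median was 0.0016 over the 5 acyltransferases and -0.16 over the 5 deacylases. Both medians depended on Prmt3f/f replicate 7. Without that tumor, Hdac1, Hdac2, Hdac3, Sirt2 and Sirt3 stood at -0.0019, 0.060, 0.029, -0.20 and 0.032. Ep300, Crebbp, Kat2a, Kat5 and Kat8 then stood at -0.105, 0.047, -0.18, -0.11 and -0.18. The 95% intervals say how large a difference the data leave possible, and for all 10 genes they lay inside a 2-fold difference in either direction, as they did for 67.5% of all genes tested. For 5 of the 10 they lay inside a 1.5-fold difference. The share of all genes tested inside 1.5-fold was not computed, so this count is a description only. The adjusted p-values of the 10 genes ran from 0.912 to 0.9997 in this test, and the lowest over the alternatives was 0.668.

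**Figure D1:**
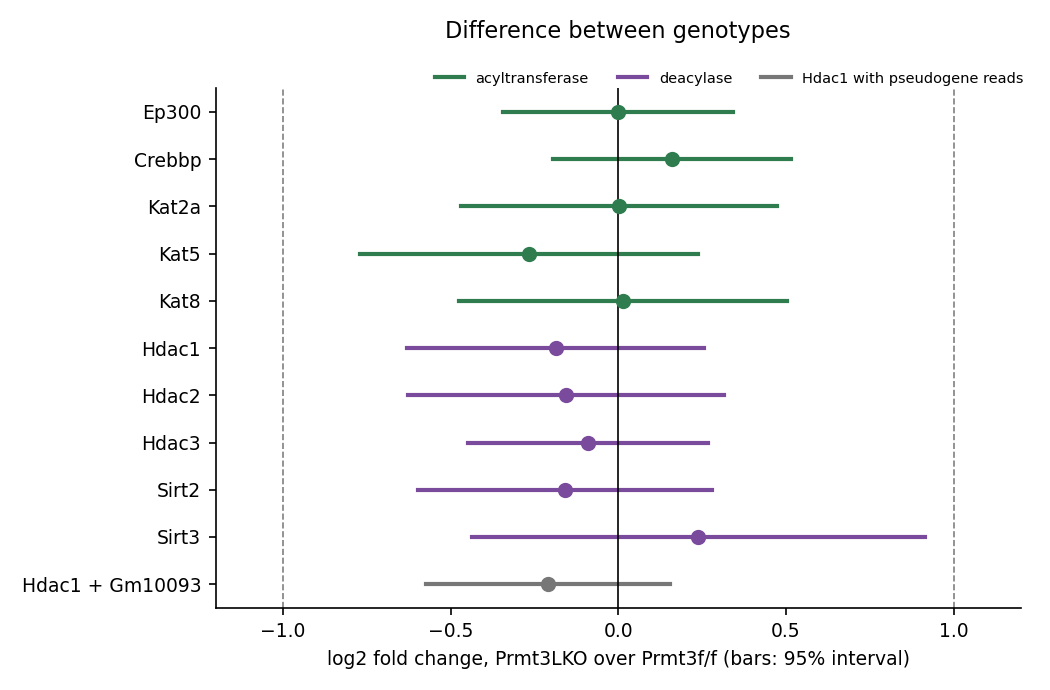
Log2 fold change of Prmt3LKO over Prmt3f/f tumors (x axis) for each gene, with bars for the 95% interval of the edgeR quasi-likelihood fit (3 tumors per genotype) and dashed lines at a 2-fold difference. All 10 intervals cross 0 and stay inside the dashed lines, and Sirt3 has the widest, from -0.44 to 0.92.

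Among the writers, Ep300 (chr15:81585351-81652077) encodes p300, an acetyltransferase that acts at enhancers and also transfers lactyl groups. It was measured at 29.96, 34.7 and 39.5 CPM in Prmt3f/f replicates 7, 66 and 71 and at 36.01, 32.4 and 35.7 CPM in Prmt3LKO replicates 92, 93 and 94. All Prmt3LKO tumors lay within the range of the Prmt3f/f tumors, and the group means were 34.7 ± 4.78 and 34.7 ± 2.001 CPM (SD, n = 3). On the log2 scale the difference was -0.0014 (standard error 0.15, 95% interval -0.34 to 0.34), and it ran from -0.105 to 0.10 as single tumors were left out.

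Crebbp (chr16:4081328-4213997) encodes CBP, the close relative of p300. Its level was 16.99, 21.2 and 21.9 CPM in Prmt3f/f tumors and 23.7, 22.5 and 21.01 CPM in Prmt3LKO tumors. Prmt3LKO replicates 92 and 93 were highest and Prmt3f/f replicate 7 was lowest, while Prmt3LKO replicate 94 was below 2 of the Prmt3f/f tumors. Prmt3LKO over Prmt3f/f, the log2 fold change was 0.16 (standard error 0.15, 95% interval -0.19 to 0.52, adjusted p = 0.935 by edgeR), and it was 0.047 without Prmt3f/f replicate 7. The ratio of Ep300 to Crebbp per base of the principal transcript was 1.995, 1.85 and 2.04 in Prmt3f/f and 1.72, 1.63 and 1.92 in Prmt3LKO tumors. The genotypes overlapped in this ratio, since Prmt3LKO replicate 94 was above Prmt3f/f replicate 66.

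Kat2a (chr11:100704746-100712465) encodes GCN5, the catalytic subunit of the SAGA and ATAC coactivator complexes. It was 13.8, 21.7 and 20.2 CPM in Prmt3f/f and 20.4, 16.3 and 19.1 CPM in Prmt3LKO tumors. The lowest and the highest tumor were both Prmt3f/f, and the log2 fold change was 0.0016 (standard error 0.20, 95% interval -0.47 to 0.47). Without Prmt3f/f replicate 7 it was -0.18.

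Kat5 (chr19:5603017-5610094) encodes TIP60, an acetyltransferase of histones H2A and H4 that also acts in the response to DNA breaks. Its level was 17.2, 12.9 and 12.2 CPM in Prmt3f/f and 13.2, 13.1 and 8.997 CPM in Prmt3LKO tumors. The highest tumor was Prmt3f/f replicate 7 and the lowest Prmt3LKO replicate 94, and the other 4 lay between 12.2 and 13.2 CPM. The log2 fold change was -0.27 (standard error 0.22, 95% interval -0.77 to 0.24, adjusted p = 0.912 by edgeR), the lowest of the 10 values. It was -0.11 without Prmt3f/f replicate 7 and -0.10 without Prmt3LKO replicate 94. Rnaseh2c lies on the opposite strand of the Kat5 locus, and 8.03% of the 100-base stretches of the GENCODE M21 transcripts of Kat5 also occur, reversed, in those of Rnaseh2c. Whether strand was used in counting is not given in the sources used here.

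Kat8 (chr7:127912516-127925837) encodes MOF, which acetylates histone H4 within the MSL and NSL complexes. It was 9.74, 14.5 and 16.5 CPM in Prmt3f/f and 14.4, 13.4 and 13.4 CPM in Prmt3LKO tumors. The Prmt3LKO tumors were tightly grouped (13.7 ± 0.588 CPM, SD, n = 3) inside the wider range of the Prmt3f/f tumors (13.6 ± 3.48 CPM, SD, n = 3). Between genotypes the log2 fold change was 0.014 (standard error 0.21, 95% interval -0.48 to 0.50), and it was -0.18 without Prmt3f/f replicate 7. Kat8 overlaps Prss8 on the opposite strand by 122 bases.

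Among the erasers, Hdac1 was counted at 413, 297 and 363 reads in Prmt3f/f and 237, 317 and 244 reads in Prmt3LKO tumors. Gm10093, whose sequence was shown beside that of Hdac1, was counted at 389, 341 and 413 reads in Prmt3f/f and 237, 319 and 263 reads in Prmt3LKO tumors. The pseudogene was thus counted at 0.942 to 1.15 times the reads of the gene in every tumor, and reads that fit both could have been assigned to either. In CPM, Hdac1 was 19.1, 13.9 and 12.8 in Prmt3f/f and 13.6, 14.3 and 12.3 in Prmt3LKO tumors. Prmt3f/f replicate 7 was well above the other 5 tumors, which lay between 12.3 and 14.3 CPM. Prmt3LKO over Prmt3f/f, the log2 fold change was -0.19 (standard error 0.19, 95% interval -0.63 to 0.26, adjusted p = 0.945 by edgeR) and -0.0019 without that tumor. With the reads of Gm10093 added to those of Hdac1 it was -0.21 (standard error 0.16, 95% interval -0.57 to 0.15, adjusted p = 0.902 by edgeR), a setting chosen after the counts of the pseudogene were seen.

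**Figure D2:**
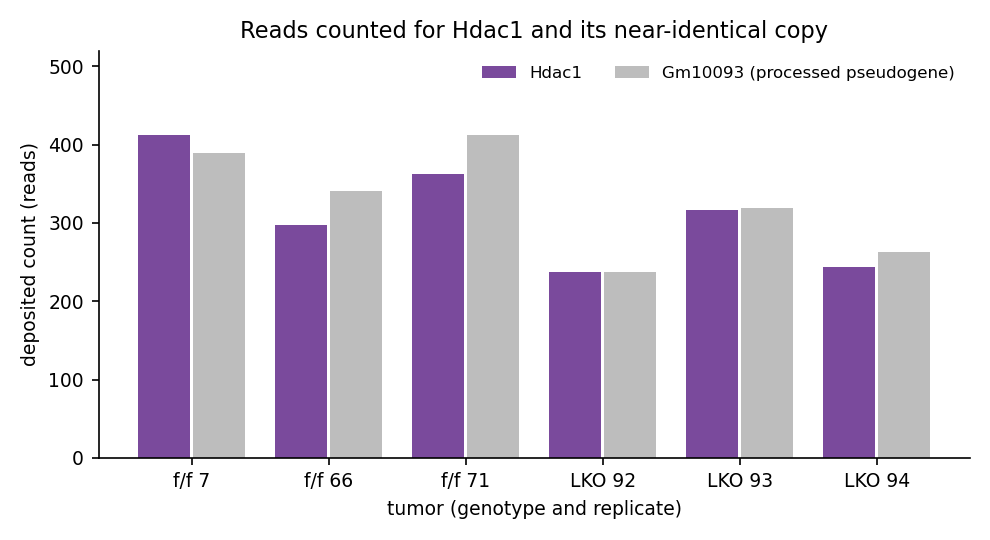
Deposited counts (y axis, reads) of Hdac1 and of its processed pseudogene Gm10093 in each of the 6 tumors (x axis, f/f for Prmt3f/f and LKO for Prmt3LKO). The bars of the gene and of the copy are close in every tumor, at 237 reads each in Prmt3LKO replicate 92.

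Hdac2 (chr10:36974544-37001889) encodes the deacetylase that pairs with HDAC1 in the NuRD, SIN3 and CoREST complexes. It was 24.8, 17.8 and 15.1 CPM in Prmt3f/f and 16.5, 18.2 and 16.99 CPM in Prmt3LKO tumors. Prmt3f/f tumors were both the highest and the lowest, and the order of the top 3 (Prmt3f/f replicate 7, Prmt3LKO replicate 93, Prmt3f/f replicate 66) was that of Hdac1. The log2 fold change was -0.16 (standard error 0.20, 95% interval -0.63 to 0.31, adjusted p = 0.957 by edgeR) and turned to 0.060 without Prmt3f/f replicate 7. The ratio of Hdac2 to Hdac1 per base of the principal transcript stayed between 1.198 and 1.41 over the 6 tumors, with the reads of Gm10093 left out.

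Hdac3 (chr18:37935844-37954988) encodes the deacetylase of the NCoR and SMRT corepressors, which represses lipid genes in the liver. It was 39.8, 31.1 and 31.0 CPM in Prmt3f/f and 30.1, 35.0 and 30.6 CPM in Prmt3LKO tumors. The same 3 tumors led as for Hdac1 and Hdac2, and the remaining tumors lay between 30.1 and 31.0 CPM. On the log2 scale the difference was -0.091 (standard error 0.15, 95% interval -0.45 to 0.27, adjusted p = 0.968 by edgeR) and turned to 0.029 without Prmt3f/f replicate 7.

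Sirt2 (chr7:28766735-28788665) encodes a mainly cytosolic sirtuin. It was 35.6, 43.3 and 33.5 CPM in Prmt3f/f and 39.8, 34.4 and 26.4 CPM in Prmt3LKO tumors. The lowest tumor was Prmt3LKO replicate 94 and the other 5 were mixed. Between genotypes the log2 fold change was -0.16 (standard error 0.19, 95% interval -0.60 to 0.28, adjusted p = 0.952 by edgeR). Without Prmt3LKO replicate 94 it was -0.012. Sirt2 overlaps Nfkbib on the opposite strand by 778 bases.

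Sirt3 (chr7:140863670-140882309) encodes the main deacetylase of mitochondria and was the most variable of the 10 genes. It was 21.5, 27.6 and 42.9 CPM in Prmt3f/f and 39.6, 26.0 and 43.2 CPM in Prmt3LKO tumors. Prmt3f/f replicate 71 and Prmt3LKO replicates 92 and 94 lay at 39.6 CPM or above, and the other 3 tumors lay at 27.6 CPM or less. Between genotypes the log2 fold change was 0.24 (standard error 0.29, 95% interval -0.44 to 0.92, adjusted p = 0.955 by edgeR), and it ran from 0.032 without Prmt3f/f replicate 7 to 0.56 without Prmt3f/f replicate 71, where the unadjusted p was 0.0669 and the adjusted p 0.668. Psmd13 and Ric8a lie on the opposite strand at the ends of Sirt3, and 3.72% and 4.91% of the 100-base stretches of the GENCODE M21 transcripts of Sirt3 also occur, reversed, in theirs.

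**Figure D3:**
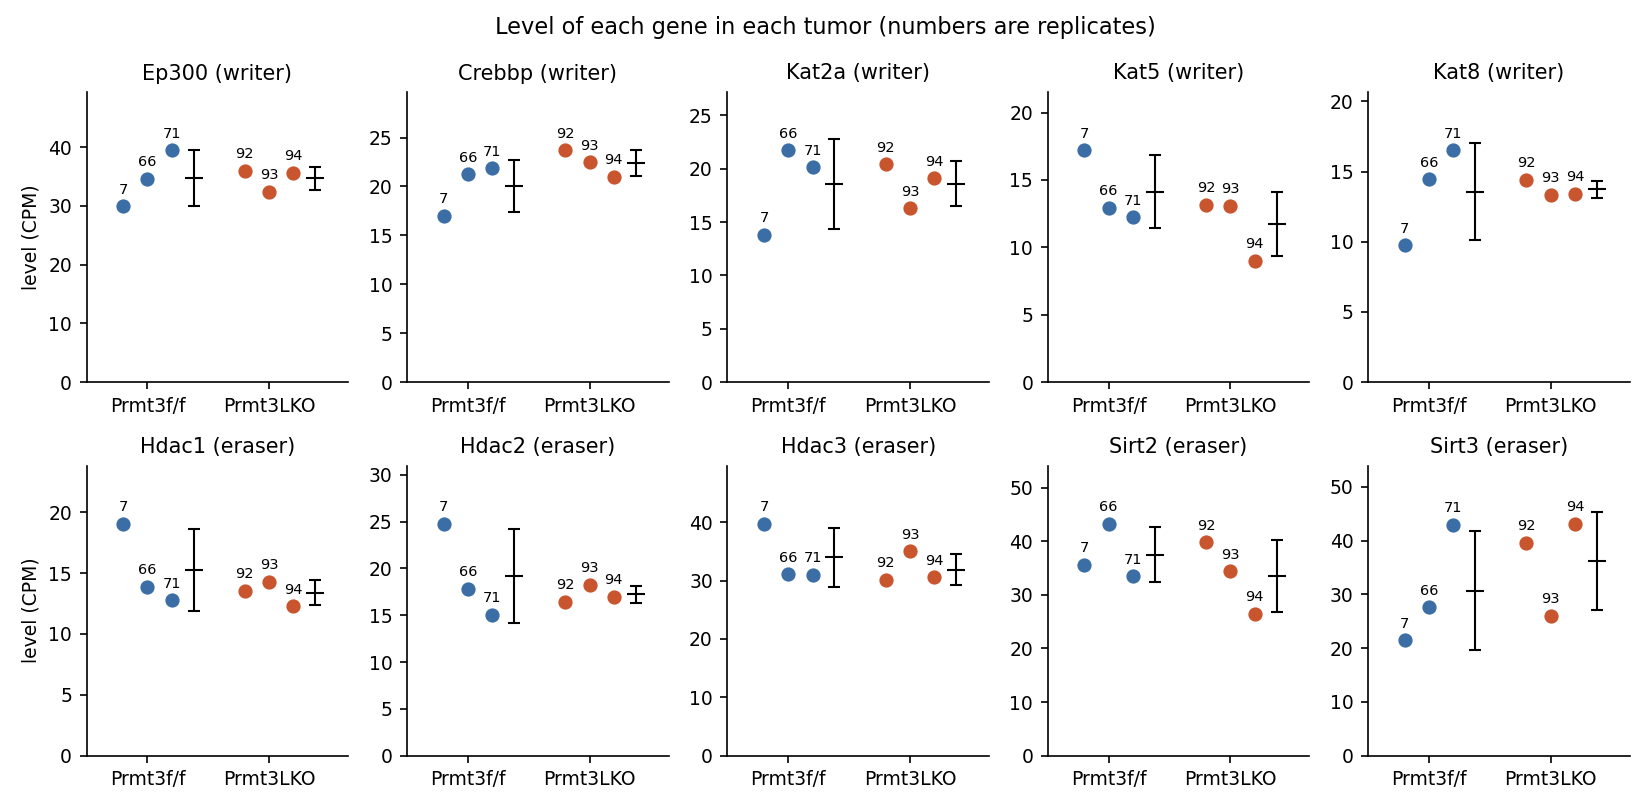
Level of each gene in CPM (y axis, from 0) in the 3 Prmt3f/f and 3 Prmt3LKO tumors (x axis), with points labelled by replicate and the mean and SD of each genotype drawn to the right of its points. The genotypes overlap in all 10 panels, and Prmt3f/f replicate 7 is the lowest or highest point in 9 of them.

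A single Prmt3f/f tumor stood at the end of the range for most of the genes. Prmt3f/f replicate 7 was the lowest of the 6 tumors for Ep300, Crebbp, Kat2a, Kat8 and Sirt3 and the highest for Kat5, Hdac1, Hdac2 and Hdac3. It was thus an extreme in 9 of 10 genes, where it was an extreme in 47.4% of all genes tested. The 9 genes are not independent of one another, so this count is a description. Relative to the mean of a gene over 6 tumors, its log2 CPM ran from -0.58 for Sirt3 and -0.47 for Kat8 to 0.43 for Hdac1 and 0.46 for Hdac2. Prmt3LKO replicate 93 was next to it in order for 7 of these 9 genes, as the second highest tumor for Hdac1, Hdac2 and Hdac3 and the second lowest for Ep300, Kat2a, Kat8 and Sirt3. It was not for Crebbp, where it was the second highest, nor for Kat5, where it was the third highest. Its values were close to the mean for Hdac1 (0.016), Hdac2 (0.019) and Kat8 (-0.014) and farther from it for Hdac3 (0.095), Ep300 (-0.094), Kat2a (-0.17) and Sirt3 (-0.31).

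Levels of Hdac1, Hdac2 and Hdac3 per base of the principal transcript were summed and divided by the sum for Ep300 and Crebbp. This ratio was 8.78, 5.55 and 4.72 in Prmt3f/f and 4.98, 6.10 and 5.21 in Prmt3LKO tumors. The scale was added after the gene lengths were seen, and the reads of Gm10093 were left out. The deposited FPKM (count divided by gene length and library size) used longer lengths for all these genes. They exceeded the principal transcript by larger factors for these erasers than for Ep300 and Crebbp. The size of the ratio thus depends on the length taken and is lower on FPKM. The ratio was highest in Prmt3f/f replicate 7 and next in Prmt3LKO replicate 93, and the genotypes overlapped (6.35 ± 2.15 and 5.43 ± 0.593, SD, n = 3). The summed proliferation markers (Mki67, Top2a, Ccnb1, Cdk1, Mcm2 and Pcna, 6 of 6 counted in every tumor) had the same 2 tumors on top, with 103.9, 68.6 and 58.6 CPM in Prmt3f/f and 59.6, 81.6 and 59.7 CPM in Prmt3LKO tumors. All 6 of these markers were highest in Prmt3f/f replicate 7. The part of proliferation in the levels of the enzymes was not tested.

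**Figure D4:**
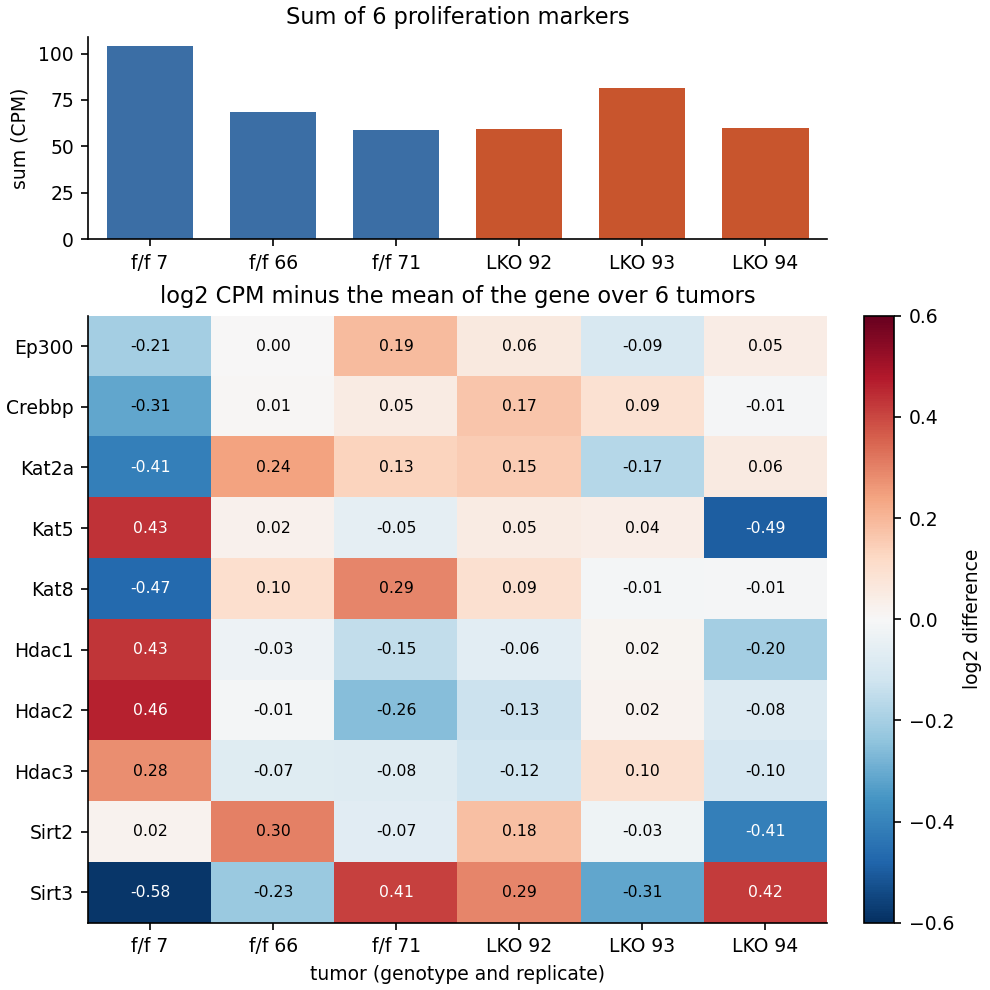
Top, sum of 6 proliferation markers in CPM (y axis) in each tumor (blue Prmt3f/f, orange Prmt3LKO). Bottom, log2 CPM of each gene minus its mean over the 6 tumors, in color and in numbers, with Prmt3f/f replicate 7 at -0.58 for Sirt3 and 0.46 for Hdac2.

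Levels were compared between genes on FPKM, which is a count divided by gene length and library size, as deposited. Sirt3 was highest at 15 ± 4.10 FPKM (SD, n = 6 tumors of both genotypes), followed by Kat5 at 6.45 ± 1.42, Sirt2 at 5.68 ± 0.858 and Hdac3 at 4.76 ± 0.683. Kat2a at 4.05 ± 0.563 and Kat8 at 4.04 ± 0.643 were level, and Hdac2 at 3.20 ± 0.665 and Hdac1 at 2.44 ± 0.469 followed. Ep300 at 1.93 ± 0.170 and Crebbp at 1.18 ± 0.117 were lowest. Of the 9 neighboring pairs in this order, 7 overlapped in their ranges over the 6 tumors. Ranges compare a gene in some tumors with its neighbor in others and leave out the order within a tumor. Hdac2 and Hdac1 overlapped in range, but Hdac2 was above Hdac1 in each of the 6 tumors. Each of the other overlapping pairs changed order in some tumor. The pairs that did not overlap were Sirt3 above Kat5 (at least 9.97 against at most 8.83 FPKM) and Ep300 above Crebbp (at least 1.72 against at most 1.31 FPKM). The place of Hdac1 excludes the reads counted for Gm10093.
The order depends on the length taken for a gene. The lengths behind the deposited FPKM were 0.932 times the principal transcript for Kat5 and 3.41 times for Hdac3, with the other genes between. Per kilobase of the principal transcript, a scale added after the lengths were seen, Sirt3 (22.8), Sirt2 (19.2) and Hdac3 (16.2) were highest, and Kat5 (6.02) stood in the eighth place. Ep300 (3.62) and Crebbp (1.96) were lowest on both scales.

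Promoter windows of 300 bases were found in RefSeq (GRCm38.p6) for 8 of the 10 genes, all but Hdac1 and Hdac3. Their GC content ran from 50% in Sirt2 to 82% in Crebbp, beside a median of 52.67% over 27025 genes. They held 12 to 49 CpG dinucleotides, beside a median of 7, and 40.14% of all windows held at least 12.

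The pattern over the 6 tumors was compared with that of every other gene tested, as the root-mean-square difference of log2 CPM after centering each gene on its mean. The most similar gene was Ctdsp1 for Ep300 (0.022), Zmynd11 for Crebbp (0.034), Banp for Kat2a (0.040), Myl12b for Kat5 (0.046) and Errfi1 for Kat8 (0.014). For the erasers it was Tpmt for Hdac1 (0.020), Tbc1d19 for Hdac2 (0.022), Psmd12 for Hdac3 (0.021) and Hnf4aos for Sirt3 (0.061). With 6 tumors and 13892 genes, close matches are plentiful, and they are given as a description. Within the 10 genes, Hdac1 and Hdac2 were the nearest pair (0.073), with 28 genes nearer to Hdac1 and 24 nearer to Hdac2, and Ep300 and Crebbp (0.12) had 658 and 677 genes nearer. Sirt2 had its nearest member, Kat5, at 0.22, with 1514 genes nearer.

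Partners and relatives of the 10 enzymes were read from 10 lists with 116 genes in all, of which 115 were tested. The gene left out by the filter was Nmnat2, an enzyme of NAD synthesis, with 3 to 10 reads per tumor. The number of the 115 genes past the adjusted limits was 0 in edgeR's test, and 7 (6.09%) had an unadjusted p under 0.05, 4 higher and 3 lower in Prmt3LKO tumors, beside 6.56% of all genes (2.2% higher and 4.37% lower). In 17 genes (14.8%) the genotypes did not overlap, beside 12.2% of all genes. The median log2 fold change was 0.052. Values for single genes in these lists are thus given for orientation, and each had an adjusted p of 0.606 or more in edgeR's test.

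Of the 12 other acetyltransferases, 0 reached an unadjusted p under 0.05. The smallest p was that of Kat6b, a paralog of MOZ, with a log2 fold change of -0.33 (unadjusted p = 0.0896 by edgeR). Of the 8 other zinc-dependent deacetylases, 0 reached it, and the smallest p was that of the class IIa enzyme Hdac7, with -0.40 (unadjusted p = 0.0615 by edgeR). Of the 5 other sirtuins, 1 did. This was Sirt7, a nucleolar sirtuin, with 15.9, 14.8 and 18.6 CPM in Prmt3f/f and 20.98, 20.98 and 21.8 CPM in Prmt3LKO tumors (log2 fold change 0.37, standard error 0.14, adjusted p = 0.737 by edgeR). All 3 Prmt3LKO tumors lay above the Prmt3f/f tumors.

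The complexes that hold the enzymes had at most 1 such gene each. Of 12 SAGA and ATAC subunits around Kat2a, this was Tada2b, an adaptor of SAGA, with 13.8, 19.7 and 22.8 CPM in Prmt3f/f and 26.2, 27.1 and 28.5 CPM in Prmt3LKO tumors (log2 fold change 0.54, standard error 0.20, adjusted p = 0.684 by edgeR). Of 16 TIP60 subunits around Kat5, it was Epc2, with 20.2, 18.9 and 18.6 CPM in Prmt3f/f and 14.2, 14.3 and 10.8 CPM in Prmt3LKO tumors (log2 fold change -0.56, standard error 0.16, adjusted p = 0.606 by edgeR). In both genes the genotypes did not overlap, with Tada2b higher and Epc2 lower in Prmt3LKO tumors. Of 11 MSL and NSL subunits around Kat8, it was Msl1, the scaffold of MSL, with 29.1, 30.4 and 32.5 CPM in Prmt3f/f and 45.1, 40.7 and 33.2 CPM in Prmt3LKO tumors (log2 fold change 0.37, standard error 0.15, adjusted p = 0.743 by edgeR).
Of 24 NuRD, SIN3 and CoREST subunits around Hdac1 and Hdac2, it was Sin3a, the scaffold of SIN3, with 25.1, 28.5 and 27.8 CPM in Prmt3f/f and 21.2, 19.1 and 21.4 CPM in Prmt3LKO tumors (log2 fold change -0.40, standard error 0.13, adjusted p = 0.648 by edgeR). Of 5 NCoR and SMRT subunits around Hdac3, 0 reached an unadjusted p under 0.05, and the smallest p was that of Tbl1x, with 0.18 (unadjusted p = 0.304 by edgeR). The median log2 fold change of these lists ran from -0.11 for the TIP60 subunits to 0.10 for the NuRD, SIN3 and CoREST subunits.

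Of the 9 readers, proteins that bind acylated lysines, 1 had an unadjusted p under 0.05. This was Mllt3, a YEATS protein, with 10.7, 9.66 and 7.98 CPM in Prmt3f/f and 6.69, 5.37 and 6.99 CPM in Prmt3LKO tumors (log2 fold change -0.57, standard error 0.20, adjusted p = 0.657 by edgeR). Of the 13 tested genes for acyl donors, alanyl-tRNA synthetases and NAD supply, 1 did, and this was Acss2, which makes acetyl-CoA from acetate in the cytosol and nucleus. Acss2 was 105.3, 97.6 and 175.9 CPM in Prmt3f/f and 195.7, 239.4 and 270.4 CPM in Prmt3LKO tumors, with means of 126.2 ± 43.2 and 235.2 ± 37.5 CPM (SD, n = 3). All 3 Prmt3LKO tumors lay above all Prmt3f/f tumors. The log2 fold change was 0.90 (standard error 0.26, 95% interval 0.29 to 1.503, adjusted p = 0.606 by edgeR), the largest in size of the 115 genes. It ran from 0.74 to 1.21 as single tumors were left out, and its adjusted p was 0.125 with DESeq2 and between 0.125 and 0.9998 over all alternatives. The summed leukocyte markers (147.5 to 186.3 CPM against 83.8 to 104.1 CPM) and kidney markers (2.85 to 4.06 CPM against 8.39 to 12.0 CPM) separated the genotypes as well, and their part in the level of Acss2 was not tested.

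**Figure D5:**
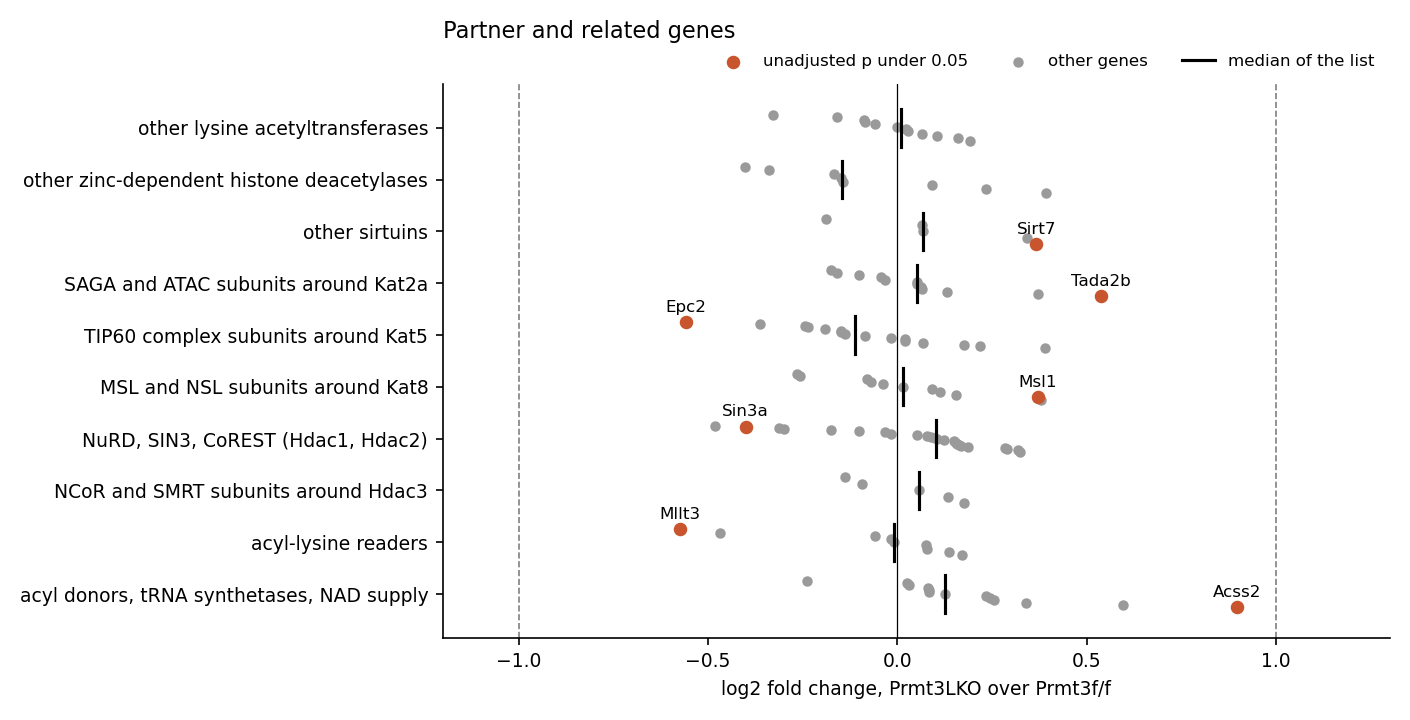
Log2 fold change of Prmt3LKO over Prmt3f/f (x axis) for the 115 tested genes of 10 lists of partner and related genes (y axis), with 1 point per gene, black lines at the median of each list and dashed lines at a 2-fold difference. The 7 named points had an unadjusted p under 0.05, and Acss2, at 0.90, lies farthest from 0.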

How the data were processed

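RNA-seq of 6 liver tumors (3 Prmt3f/f and 3 Prmt3LKO, grouped by the genotype in the labels) was analysed from 1 table. The authors deposited for each gene a count, the number of reads without normalization, and an FPKM value, which divides the count by a gene length and the total count of the tumor. The submitters' processing notes name bcl2fastq 2.19, HISAT2 2.0.4, StringTie 1.3.0 and GRCm38. The counting tool, annotation release and use of strand are not given in the sources used here. All 12 value columns were used, and 0 were left unused.

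Counts were filtered with filterByExpr (minimum count 10, minimum total count 15), scaled by TMM and compared in edgeR 4.0.16 (R 4.3.3) by its quasi-likelihood test, adjusting p over 13892 genes after Benjamini and Hochberg. Limits were those of the study, an adjusted p under 0.05 with a fold of at least 2 or at most 0.5. At these limits the study reported more changed genes than any fit here found. The tool behind its comparison is not given in the sources used here. The standard error is the log2 fold change over the root of the F statistic. CPM used the TMM-scaled library size (prior count 2 on the log2 scale). For each enzyme the log2 CPM were also permuted over all 20 splits of 6 tumors (exact, two-sided, smallest possible p 0.1), which gave p from 0.3 to 1. Alternatives were DESeq2 1.42.0, limma-voom 3.58.1, the exact test of edgeR, no TMM, other filters, FPKM with a pseudocount of 1 or 0.1, TPM, and each tumor left out. No 2 libraries agreed within sampling noise, so no library was a repeat reading of another. Each was taken as 1 sample, and whether the tumors were independent in other ways cannot be checked this way.

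The 10 enzymes and the lists of partner, related and marker genes were chosen with earlier results of these data known. Named genes are the 10 enzymes, Prmt3, the most similar gene to each enzyme (not reported here for Sirt2), and in each list any gene past the limits and the gene of smallest unadjusted p in each direction if under 0.05, or else the gene of smallest p. Coordinates of the 10 enzymes are those of the deposited table on GRCm38, which differ from GENCODE M21 at one or both ends for Kat5, Hdac3, Sirt2 and Sirt3. Transcripts, exons and the pseudogene are from GENCODE M21 on GRCm38. Sequence of Hdac3 is not reported here.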

Additional observations from a re-analysis of the deposited data

How the results depend on the processing

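Of 141 values of the log2 fold change of the 10 enzymes under alternatives, 124 kept their sign and 17 turned, and the lowest unadjusted p was 0.0669, so that 0 enzymes passed the limits under any alternative run. The cause of the turns was not tested. Ep300 (-0.0014) was 0.0000 with DESeq2 and 0.0071 with limma-voom, Kat2a (0.0016) was -0.021 without TMM, -0.0029 with no filter beyond 1 count, -0.0038 with a mean of at least 1 CPM, -0.0031 on log2(FPKM + 1) and -0.0001 on log2(FPKM + 0.1), and Kat8 (0.014) was -0.0068 without TMM. With single tumors left out the range was -0.105 to 0.10 for Ep300, 0.047 to 0.23 for Crebbp, -0.18 to 0.13 for Kat2a, -0.36 to -0.10 for Kat5, -0.18 to 0.18 for Kat8, -0.30 to -0.0019 for Hdac1, -0.30 to 0.060 for Hdac2, -0.16 to 0.029 for Hdac3, -0.30 to -0.012 for Sirt2 and 0.032 to 0.56 for Sirt3. Prmt3 passed the limits with DESeq2 (-1.55, adjusted p = 0.0035) and edgeR's exact test (-1.55, adjusted p = 0.00735), and its adjusted p was 0.592 in the quasi-likelihood test. It ran from -1.80 to -1.34 without single tumors. Genes past the limits over the whole table numbered 0 in the quasi-likelihood test, where 912 had an unadjusted p under 0.05, and 54 with DESeq2, 40 with edgeR's exact test and 2 with no filter beyond 1 count. The genes of the partner lists at an unadjusted p under 0.05 numbered 3 without Prmt3f/f replicate 66 and 11 without Prmt3f/f replicate 7, against 7 with all tumors.

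The mean levels, rescaled from FPKM to TPM, were 5.21 for Ep300, 3.21 for Crebbp, 10.97 for Kat2a, 17.4 for Kat5, 10.96 for Kat8, 6.57 for Hdac1, 8.62 for Hdac2, 12.9 for Hdac3, 15.4 for Sirt2 and 40.7 for Sirt3. The order of the genes was the same, but this rescaling multiplies all genes of a tumor by the same factor. It cannot change the order within a tumor and is no check of it. Per kilobase of the principal transcript, chosen after seeing the data, they were 3.62, 1.96, 6.08, 8.63, 7.03, 9.11, 16.2, 19.2 and 22.8 CPM for Ep300, Crebbp, Kat2a, Kat8, Hdac1, Hdac2, Hdac3, Sirt2 and Sirt3.

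No paired analysis was possible because the genotypes share no replicate number. With 3 tumors per genotype, the intervals of the 10 enzymes leave smaller differences than 2-fold possible, at 179 to 1220 reads per gene and tumor. Protein levels, enzyme activity and histone marks were not measured in these files.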
